A study of Mus musculus with 6 samples.

Results

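Zeb1, Zeb2, Snai2, Twist1, Vim, Cdh2, Fn1, Mmp2 and Sparc are genes of the mesenchymal state, and their transcripts were followed in differentiating mouse embryonic stem (ES) cells depleted or not of Atad2, a bromodomain AAA ATPase of acetylated chromatin. All probes annotated with one of these 9 gene symbols, under the current name or an older alias, were taken, which gave 9 of 19057 annotated genes and 21 of 45281 probes on the Illumina MouseWG-6 v2.0 beadchip. The value of a probe is the mean fluorescence of its beads. No probe was found through an alias alone. The shAtad2 cells stably expressed a short hairpin RNA against Atad2 and the shCtrl cells an inactive hairpin, each from a pLKO.1 lentivirus. Both were pools selected with puromycin, made from the 46C-Atad2-tagged line, a 129SV knock-in line in which Atad2 carries a tag, so tagged Atad2, the vector and the selection were common to all samples. All cells were taken on day 3 of differentiation, started by taking away LIF (leukaemia inhibitory factor), a cytokine that holds ES cells in their undifferentiated state. Each group had 3 arrays, and nothing states that the replicates were separate cultures, so the spread behind the p-values may be technical only.

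In an epithelial to mesenchymal transition, epithelial cells loosen their junctions, change their cytoskeleton and begin to make and cut matrix. Zinc finger and basic helix-loop-helix factors, among them Zeb1, Zeb2, Snai2 and Twist1, repress epithelial genes such as Cdh1 through short E-box motifs. A transition of this kind takes place in the embryo when epiblast cells leave the primitive streak as mesoderm and endoderm, and differentiating ES cells can go through a related one.

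The genes did not share one direction. Mmp2, a secreted gelatinase, was higher on all 3 shAtad2 arrays than on any shCtrl array, by 1.40-fold. Zeb1 and Vim were higher by 1.68-fold and 1.42-fold and Fn1 was lower by 1.39-fold, each with the same sign in the 3 replicate numbers. None of these differences passed the adjusted threshold across all genes, and those of Zeb1, Vim and Fn1 moved by over 1.5 times when a single array was left out. On their brightest probes, Zeb1, Zeb2, Twist1, Vim and Fn1 differed more between the third replicates and other arrays of their group than between groups. The second-brightest kept probes of Zeb2 and Fn1 did not. Snai2 was not well above background on any array.

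Values are normalized log2 intensity unless stated otherwise, and a change is shAtad2 minus shCtrl, given with its standard error (SE) in the limma fit. A change of 1 is a doubling. The median unnormalized intensity was 130.0 to 138.9 on the 6 arrays, and 39.3% to 40.9% of probes were above background, which means a detection p-value under 0.05. The third replicate of shAtad2 and that of shCtrl differed from the other 4 arrays on many genes, so results are also given without them where they move. Atad2 itself, the gene targeted, had a level of 5.69, 5.64 and 5.41 on the shAtad2 arrays and 6.28, 6.48 and 6.39 on the shCtrl arrays. These groups did not overlap, and Atad2 was 1.74-fold lower in shAtad2 cells, with an adjusted p of 0.310 in the limma fit. The ES cell and epiblast markers, Pou5f1, Nanog and Sox2 among them, were measured for 11 of 11 genes, with a mean level of 10.82 to 10.84 on the shAtad2 arrays and 10.82 to 10.99 on the shCtrl arrays, so the defining markers of the labelled cell type were present.

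Of the 21 probes, 12 were above background on at least 3 of the 6 arrays and 9 were not above background on any. Zeb1, Vim and Cdh2 kept 1 of their 2 probes, Zeb2 kept 2 of 5, Fn1 3 of 4, Sparc 2 of 3, and Twist1 and Mmp2 their only one. The single Snai2 probe had detection p-values of 0.0705 to 0.457 and unnormalized intensities of 125.9 to 134.8. Thus 8 of the 9 genes entered the test of 10072 genes, each by its brightest kept probe. The level of a probe depends on its sequence, so levels are compared between arrays and not between genes. RNA of whole cultures was measured, in which fewer mesenchymal cells and less transcript in each cell cannot be told apart.

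Promoter sequences were available in the RefSeq table of build GRCm38.p6 for 4 of the 9 genes, Vim, Twist1, Sparc and Zeb2, the last with 4 start sites, each as the 250 bases before the start and the 50 after it. Vim and Twist1 are shown because both were lowest on the third replicates and both hold the same pair of motifs, and Sparc because its level varied least. Capitals mark TATAAA and CCAAT in the first pair, either strand, and the E-box letters CANNTG in Sparc. Vim lies at chr2:13574061-13574360 on the plus strand, Twist1 at chr12:33957421-33957720 on the plus strand and Sparc at chr11:55420031-55420330 on the minus strand.
Vim: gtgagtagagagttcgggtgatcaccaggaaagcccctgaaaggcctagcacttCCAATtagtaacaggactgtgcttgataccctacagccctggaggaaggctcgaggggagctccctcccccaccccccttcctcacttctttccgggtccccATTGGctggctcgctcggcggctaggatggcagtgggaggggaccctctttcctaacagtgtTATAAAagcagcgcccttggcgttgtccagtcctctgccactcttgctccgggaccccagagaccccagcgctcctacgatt
Twist1: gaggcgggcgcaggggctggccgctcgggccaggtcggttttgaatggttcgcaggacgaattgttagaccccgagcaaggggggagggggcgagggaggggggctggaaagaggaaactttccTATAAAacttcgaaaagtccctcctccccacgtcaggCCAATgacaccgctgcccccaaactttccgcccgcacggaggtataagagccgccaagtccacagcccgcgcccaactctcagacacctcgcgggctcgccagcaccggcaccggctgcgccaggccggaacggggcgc
Sparc: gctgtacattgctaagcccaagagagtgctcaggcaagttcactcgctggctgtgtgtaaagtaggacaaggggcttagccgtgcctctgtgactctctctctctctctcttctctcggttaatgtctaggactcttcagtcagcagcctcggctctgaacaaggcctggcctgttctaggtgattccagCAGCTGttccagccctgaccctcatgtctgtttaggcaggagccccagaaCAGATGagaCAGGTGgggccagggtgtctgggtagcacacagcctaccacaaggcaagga
In Vim, TATAAA began at -32, counted from the start, and CCAAT was found on both strands, at -196 and, as ATTGG, at -94. In Twist1, TATAAA began at -126 and CCAAT at -89. Both motifs together were found in 5.3% of the 32851 mouse promoters of this length, TATAAA alone counted in 13.6% and CCAAT in 37.4%. Neither promoter held CANNTG, which was in 72.3% of all promoters, whereas Sparc held it at -60, -10 and -1 and held neither TATAAA nor CCAAT. The one nearest the start, CAGGTG, reads CACCTG on the other strand, the E-box form bound by Zeb and Snail factors, found in 20.2% of promoters. The 4 Zeb2 windows, not shown, held neither CANNTG nor TATAAA, and CCAAT was found in 1 of them, although Zeb2 varied with Vim across the 6 arrays as closely as Twist1 did (Pearson r = 0.83 for each). These are matches of letters within windows and not tested binding sites.

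Mmp2, which cuts denatured collagen and basement membrane collagen, separated the groups most clearly. Its level was 10.90, 10.87 and 10.76 on the shAtad2 arrays and 10.35, 10.35 and 10.37 on the shCtrl arrays. The lowest shAtad2 array was thus above the highest shCtrl array, and the shCtrl arrays were nearly equal. The change was 0.49 (SE 0.12), with differences of 0.55, 0.52 and 0.40 in replicates 1, 2 and 3. The adjusted p was 0.394, and the third replicate differed from the mean of the others by -0.12 in shAtad2 and 0.02 in shCtrl. The exact permutation test of 3 arrays against 3 cannot give a two-sided p below 0.1, and is not used for single genes here.

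Fn1 encodes fibronectin, a matrix glycoprotein bound by integrins, and was lower in shAtad2 cells. Its brightest probe read 9.06, 9.08 and 8.46 on the shAtad2 arrays and 9.62, 9.58 and 8.82 on the shCtrl arrays. Within each replicate number the shAtad2 array was the lower one, with differences of -0.57, -0.50 and -0.36, but the groups overlapped because shCtrl 3 was below the first pair of shAtad2 arrays. The change was -0.47 (SE 0.26, adjusted p 0.739), but -0.27 without shAtad2 3, -0.73 without shCtrl 3 and -0.29 as the mean of the kept Fn1 probes. A second Fn1 probe read 5.42, 5.77 and 5.78 on the shAtad2 arrays and 6.35, 6.06 and 5.86 on the shCtrl arrays, a change of -0.43 (SE 0.18, adjusted p 0.668 over all kept probes). On that probe the groups did not overlap. The third replicate was the lowest array in shCtrl and the highest in shAtad2. The third kept probe, a dim one, above background on 2 shAtad2 arrays and 1 shCtrl array, had a change of 0.04 and did not share the direction.

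Sparc, a secreted collagen-binding glycoprotein made in quantity by parietal endoderm and mesenchyme, was the steadiest of the genes. Levels were 9.64, 9.43 and 9.59 on the shAtad2 arrays and 9.51, 9.29 and 9.35 on the shCtrl arrays. The shAtad2 array was above its shCtrl partner by 0.13, 0.14 and 0.24, and the groups overlapped. The change was 0.17 (SE 0.14, adjusted p 0.852), and the second Sparc probe gave 0.17 (SE 0.18) with differences of 0.46, 0.18 and -0.13.

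**Figure D1:**
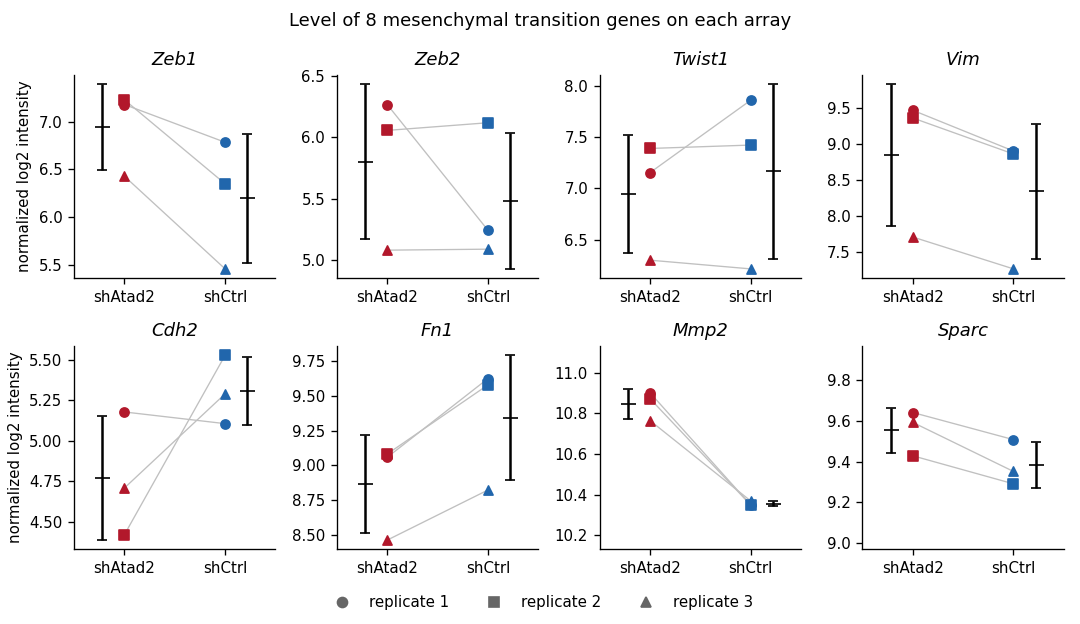
Normalized log2 intensity (y axis, own range in each panel, not from 0) of 8 genes on the 3 shAtad2 arrays (red, left) and the 3 shCtrl arrays (blue, right). Marker shapes give the replicate number, grey lines join arrays of the same number and black bars are mean ± SD of 3 arrays. Mmp2 was between 10.76 and 10.90 on shAtad2 arrays and between 10.35 and 10.37 on shCtrl arrays, and the third replicates (triangles) were the lowest of both groups for Zeb1, Zeb2, Twist1, Vim and Fn1.

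Of the cell body genes, Vim encodes vimentin, the intermediate filament of mesenchymal cells. It read 9.47, 9.37 and 7.71 on the shAtad2 arrays and 8.91, 8.87 and 7.27 on the shCtrl arrays. Every shAtad2 array was above its partner, by 0.57, 0.50 and 0.44, while the third replicates were far below all other arrays. The change of 0.50 therefore had an SE of 0.58 (adjusted p 0.920) without the replicate number in the model and an SE of 0.13 (adjusted p 0.161) with it as a block. Leaving out shCtrl 3 alone turned the change to -0.04, and leaving out shAtad2 3 alone raised it to 1.07.

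Cdh2, or N-cadherin, the adhesion molecule that takes the place of E-cadherin in mesenchymal and neural cells, was close to background. Its probe read 5.18, 4.42 and 4.71 on the shAtad2 arrays and 5.11, 5.53 and 5.29 on the shCtrl arrays, from unnormalized intensities of 116 to 156. It was above background on 1 of 3 shAtad2 arrays and on all 3 shCtrl arrays, and so it passed the filter mainly through the group in which it was higher. The change was -0.54 (SE 0.22, adjusted p 0.587), with differences of 0.07, -1.10 and -0.58. The groups overlapped through shAtad2 1 alone, the array on which the probe was above background.

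Among the transcription factors, Zeb1 was higher in shAtad2 cells in every replicate number. It read 7.18, 7.23 and 6.43 on the shAtad2 arrays and 6.78, 6.35 and 5.45 on the shCtrl arrays. The differences were 0.40, 0.88 and 0.97, and the groups overlapped since shAtad2 3 was below shCtrl 1. The change was 0.75 (SE 0.36, adjusted p 0.680), and it was 0.38 without shCtrl 3, 0.34 with no background correction and 0.34 on the authors' processed table.

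The brightest probe of Zeb2, the second zinc finger E-box repressor of the pair, had no steady difference. It read 6.26, 6.05 and 5.08 on the shAtad2 arrays and 5.24, 6.12 and 5.09 on the shCtrl arrays. Its change of 0.32 (SE 0.37, adjusted p 0.922) came from replicate 1, with a difference of 1.02, against -0.06 and -0.01 in replicates 2 and 3. A second Zeb2 probe, above background on 3 shAtad2 arrays and 1 shCtrl array, read 5.75, 5.74 and 5.89 on the shAtad2 arrays and 5.07, 5.88 and 5.00 on the shCtrl arrays. It differed in replicates 1 and 3, by 0.68 and 0.89, and not in replicate 2, at -0.14, so the probes disagreed about replicate 3.

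Twist1, the basic helix-loop-helix factor of early mesoderm and neural crest, read 7.15, 7.39 and 6.30 on the shAtad2 arrays and 7.86, 7.42 and 6.21 on the shCtrl arrays. Only replicate 1 differed by more than 0.1, at -0.71, against -0.03 and 0.08 in replicates 2 and 3. The change was -0.22 (SE 0.44, adjusted p 0.965), and it turned positive when shCtrl 1 (0.13) or shAtad2 3 (0.11) was left out.

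**Figure D2:**
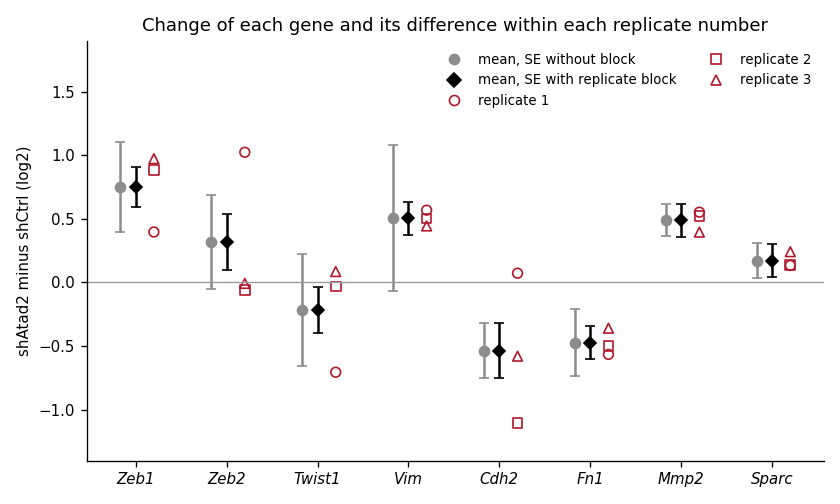
Change of each gene, shAtad2 minus shCtrl in log2 units (y axis), as the mean of 3 arrays per group with the SE of the fit without a block (grey) and with the replicate number as a block (black). Open red markers are the differences within replicates 1, 2 and 3, and the SE of Vim is 0.58 without the block and 0.13 with it.

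Over the 8 measured genes, 5 were higher and 3 lower in shAtad2 cells, with a median change of 0.24 against -0.0012 over the 10072 genes tested. With limma, 0 of the 8 passed an adjusted p of 0.05, and so did 0% of all genes. At an unadjusted p under 0.05 there were 2, Mmp2 and Cdh2, against 7.92% of all genes. With the replicate number as a block, 5 had an unadjusted p under 0.05, namely Zeb1, Vim and Mmp2 above 0 and Fn1 and Cdh2 below it, against 13.4% of all genes, and 0 of the 8 passed the adjusted threshold, which 0.0993% of all genes did. Both counts hold Cdh2, which was above background on 1 shAtad2 array only. With detection required on all 6 arrays, which removed Cdh2, they were 1 of 7 without the block and 4 of 7 with it. Over all genes, 701 of 8735 without the block and 1252 of 8735 with it had an unadjusted p under 0.05 in those fits. The blocked adjusted p was 0.113 for Zeb1, 0.161 for Vim, 0.167 for Mmp2, 0.178 for Fn1 and 0.333 for Cdh2. The groups did not overlap for 1 gene, Mmp2, against 13.5% of all genes. The sign was the same in the 3 replicate numbers for 5 genes, Zeb1, Vim, Fn1, Mmp2 and Sparc, against 34.5% of all genes. With the third replicates of both groups left out and no block, 4 of the 8 had an unadjusted p under 0.05, against 1775 of all 10072 genes, and the median change was 0.31. The median was 0.042 without shCtrl 3, 0.11 without shAtad2 1 and 0.13 with no background correction.

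**Figure D3:**
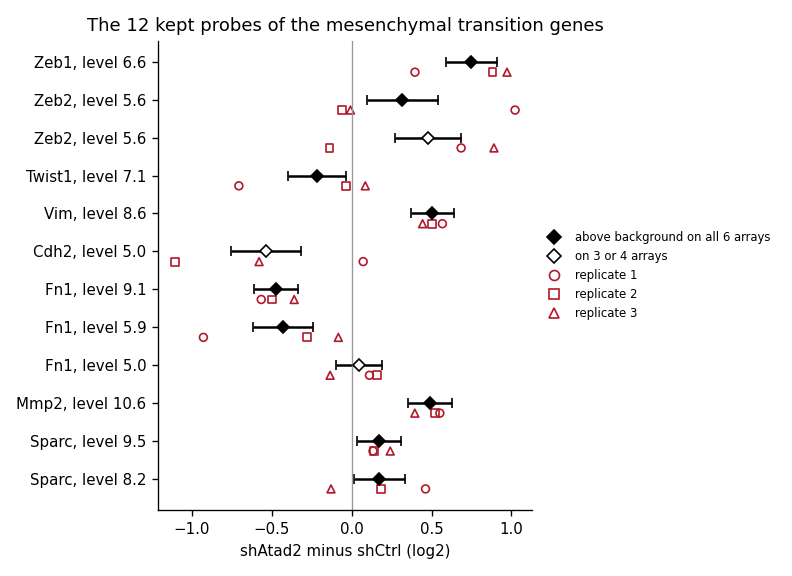
Change of each of the 12 kept probes, shAtad2 minus shCtrl in log2 units (x axis), with the SE of the fit with a replicate block, each labelled with its gene and its mean level. Filled diamonds are probes above background on all 6 arrays, open diamonds on 3 or 4, red markers are the differences within replicates, and the first pair of Fn1 probes (-0.47 and -0.43) and both Sparc probes (0.17 each) gave like values.

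The third replicates divided the genes into those that were lower there and those that were not. For Vim, shAtad2 3 minus the mean of shAtad2 1 and 2 was -1.71, and shCtrl 3 minus the mean of shCtrl 1 and 2 was -1.62. The same differences were -0.97 and -1.43 for Twist1, -0.78 and -1.11 for Zeb1, -1.08 and -0.59 for Zeb2 and -0.61 and -0.78 for Fn1. Cdh2 (-0.09 and -0.03), Mmp2 (-0.12 and 0.02) and Sparc (0.06 and -0.05) had values near 0. These values are from the brightest probe of each gene. The second Zeb2 probe had 0.14 in shAtad2 and -0.47 in shCtrl. The second Fn1 probe had 0.18 and -0.34, the third Fn1 probe -0.56 and -0.29, and the second Sparc probe -0.49 and -0.03. Over all genes, the median size of this difference was 0.238 in shAtad2 and 0.256 in shCtrl, and the ninth decile was 0.681 in shAtad2 and 0.700 in shCtrl. Vim, Twist1 and Zeb1 were beyond both deciles. The difference was below 0 in both groups for 6 of the 8 genes, against 32.6% of all genes.

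Epithelial genes were high on the same arrays. Of 18 measured genes of the epithelial list (junction proteins, keratins and splicing or transcription factors of epithelia), 17 were higher on the third replicate of both groups and 0 were lower on both, against 32.1% of all genes higher on both. The median difference of the third replicates was 0.53 in shAtad2 and 0.59 in shCtrl for the epithelial genes, and -0.69 in both for the mesenchymal genes. Cdh1, or E-cadherin, read 10.26, 10.26 and 10.50 on the shAtad2 arrays and 10.28, 10.31 and 10.82 on the shCtrl arrays. Cldn6, a claudin of the early embryonic epithelium, read 10.82, 10.61 and 12.14 on the shAtad2 arrays and 11.24, 11.42 and 12.35 on the shCtrl arrays. Both had their highest level on the third replicate in each group. This difference ran along the replicate number, in shAtad2 as in shCtrl.

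Genes of the primitive streak and early mesoderm were low on these arrays too. Their mean level over 6 measured genes was 8.10, 8.15 and 6.07 on the shAtad2 arrays and 8.92, 8.67 and 7.18 on the shCtrl arrays, and 5 of the 6 were lower on the third replicate of both groups. T and Hand1, both mesoderm factors, were not above background on any array. Mixl1, a streak homeobox factor, read 7.68, 7.81 and 4.98 on the shAtad2 arrays and 9.54, 9.41 and 6.02 on the shCtrl arrays. Each shAtad2 array was below its partner, and the change was -1.50 (SE 1.06, adjusted p 0.822, or 0.0479 with the block, under which Mixl1 fell). The blocked call was lost when dim probes were kept (adjusted p 0.118). Mixl1 was above background on 2 of 3 shAtad2 arrays, so requiring detection on all 6 arrays removed it. Of the 6 measured genes of this list 5 were lower in shAtad2 cells and 1 higher, a median of -0.76, and their part in the changes of the mesenchymal genes was not tested. The part that this difference between replicates had in the changes of Zeb1, Zeb2, Twist1, Vim and Fn1 was not tested beyond the block and the arrays left out.

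**Figure D4:**
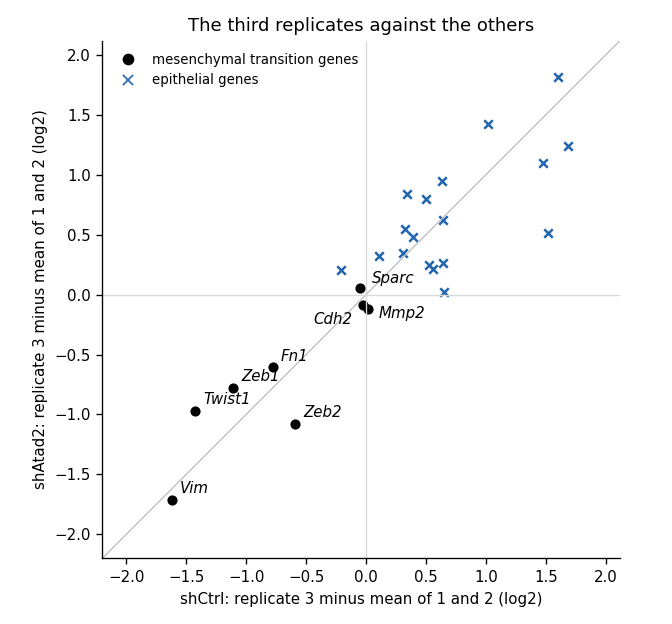
Level on replicate 3 minus the mean of replicates 1 and 2 in log2 units, for shAtad2 (y axis) and shCtrl (x axis), with the line of equality. Black points are 8 mesenchymal transition genes, 6 of them below 0 on both axes, and blue crosses are 18 epithelial genes, 17 of them above 0 on both.

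Across the 6 arrays the levels of several genes ran in parallel. The highest Pearson correlations, given as descriptions over 6 arrays that include both groups, were 0.89 for Zeb1 and Vim, 0.89 for Twist1 and Fn1, 0.83 for Zeb2 and Vim and 0.83 for Twist1 and Vim. The lowest were -0.69 for Cdh2 and Mmp2 and -0.51 for Fn1 and Mmp2, genes that differed between the groups in opposite directions. Among 5987 tested genes with an SD of at least 0.2 over the 6 arrays, the gene most like Vim was Dcun1d2 (r = 0.997), and 101 genes had r over 0.95 with it. For the others the nearest were Zfp316 for Zeb1 (0.995), N6amt1 for Zeb2 (0.996), Twist1 with Zfp12 (0.992), Fn1 with Ncoa6 (0.993), Mmp2 with Soga3 (0.997), Sparc with Rbl1 (0.998) and Cdh2 with Ddias (0.962). With 6 arrays such values are reached by many genes, from 4 for Cdh2 to 101 for Vim over 0.95.

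The wider transition programme was 91 genes in 5 lists, of which 60 were measured. It had no gene past the adjusted threshold without the block and 2 with it, against 0% and 0.0993% of all genes. Over the 10072 genes tested, 5009 were higher and 5063 lower in shAtad2 cells. In the list of other transition factors, 6 of 10 measured genes were higher and 4 lower (median 0.08). Sox9, an SRY-related factor of neural crest and mesenchymal progenitors, read 6.42, 6.18 and 6.86 on the shAtad2 arrays and 5.47, 5.62 and 5.92 on the shCtrl arrays, a change of 0.82 (SE 0.21, adjusted p 0.410). Its groups did not overlap. Sox4, a related factor, had a change of 0.32 (SE 0.15, adjusted p 0.667). Snai1, the Snail repressor closest to Snai2, was chosen here after its values were seen. It read 6.55, 6.31 and 5.52 on the shAtad2 arrays and 7.77, 7.26 and 6.01 on the shCtrl arrays, a change of -0.88 (SE 0.45, adjusted p 0.713, or 0.106 with the block), opposite in sign to Zeb1. It was lower in each replicate number and lowest on the third replicates. Foxc2, Klf8 and Hmga2 were, like Snai2, not above background on any array.

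Of the genes of TGF-beta signalling, which drives the transition in many epithelia, 5 of 12 measured were higher and 7 lower (median -0.0019). Tgfbr2, the type II receptor, had a change of 0.48 (SE 0.20, adjusted p 0.626) and was above background on 1 of 3 shCtrl arrays. Tgif1, a repressor of Smad-dependent transcription, had a change of -0.38 (SE 0.17, adjusted p 0.648).

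The adhesion and cytoskeleton list had 7 genes higher and 7 lower of 14 measured, with a median of -0.01. Ncam1, the neural cell adhesion molecule, also a marker of neural progenitors, stood apart within it. It read 9.24, 8.96 and 7.99 on the shAtad2 arrays and 7.78, 7.28 and 6.86 on the shCtrl arrays. The groups did not overlap, and the change was 1.42 (SE 0.35, adjusted p 0.389). The change was 0.97 as the mean of the kept Ncam1 probes (adjusted p 0.325) and 1.00 with no background correction (adjusted p 0.312). With the block the adjusted p was 0.0479, so Ncam1 rose under that model, and it did so again with the block and the third replicates left out (adjusted p 0.0401). The call was lost with the block when dim probes were kept (adjusted p 0.118) and without the block when the third replicates were left out (adjusted p 0.0996). Itga5, an integrin chain of the fibronectin receptor, had a change of -0.21 (SE 0.16, adjusted p 0.830). Cdh11 and S100a4 were not above background on any array.

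Of the 21 genes of the matrix and proteolysis list, 18 had an annotated probe and 6 were measured. For 11 of the 21 no probe was above background on any array, and these 11 include the genes without a probe. Among them were Col1a1, Col1a2, Col3a1, Postn and Lox, collagens and other matrix genes of fibroblasts. Of the 6 measured genes, 4 were higher and 2 lower (median 0.09). Timp1, a secreted inhibitor of matrix metalloproteinases, read 7.53, 7.50 and 7.82 on the shAtad2 arrays and 7.84, 7.91 and 8.06 on the shCtrl arrays, a change of -0.32 (SE 0.15, adjusted p 0.669). Vcan, a large proteoglycan, had a change of 0.48 (SE 0.23, adjusted p 0.683) and was above background on 1 shCtrl array. The groups did not overlap for Timp1.

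In the epithelial list 14 of 18 measured genes were lower in shAtad2 cells and 4 higher (median -0.18). Rab25, an epithelial GTPase of membrane recycling, read 6.38, 6.20 and 8.11 on the shAtad2 arrays and 7.48, 7.54 and 9.12 on the shCtrl arrays. Each shAtad2 array was below its partner, and the change of -1.15 had an SE of 0.59 and an adjusted p of 0.714, or 0.0479 with the block, under which Rab25 fell. With the block it was no longer called without the third replicates (adjusted p 0.0623) or when dim probes were kept (adjusted p 0.118). Esrp2, an epithelial splicing regulator, had a change of -0.45 (SE 0.18, adjusted p 0.578) and Krt8, a simple-epithelium keratin, one of -0.39 (SE 0.16, adjusted p 0.606). Epcam and Dsp were not above background on any array.

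**Figure D5:**
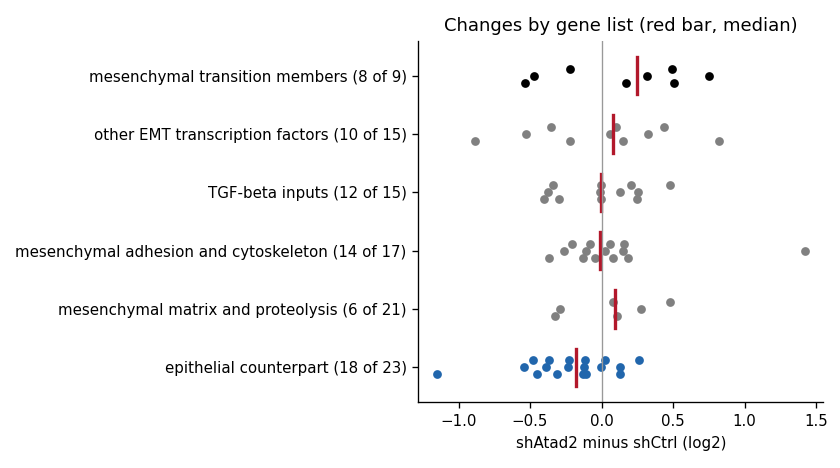
Change of each measured gene, shAtad2 minus shCtrl in log2 units (x axis), for the 9 mesenchymal transition genes and 5 related lists, with the median of each list as a red bar and the measured and total numbers of genes in brackets. The medians lie between -0.18 for the epithelial genes and 0.24 for the mesenchymal transition genes.

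Several of these genes are also made by cell types other than cells in transition, so markers of such cells were read on the same arrays. Fibroblasts make Vim, Fn1, Mmp2 and Sparc, and the methods describe culture of the 46C cells on gelatin, with feeder cells named only for the gene targeting step. Of 10 fibroblast markers 9 had an annotated probe and 3 were measured, Dcn, Fbln2 and Thy1. Their mean level was 6.74 to 7.12 on the shAtad2 arrays and 6.26 to 6.99 on the shCtrl arrays. No probe of Lum, Col1a1, Col1a2, Col3a1, Col6a3 or Postn was above background on any array, and the marker without a probe was among these. Dcn, a small proteoglycan, read 5.17, 5.61 and 5.88 on the shAtad2 arrays and 4.53, 4.55 and 5.24 on the shCtrl arrays. It was above background on all 3 shAtad2 arrays and on 1 shCtrl array. Like Vim it was higher in shAtad2 in each replicate number, by 0.63, 1.06 and 0.64 (change 0.78, SE 0.25, adjusted p 0.501, or 0.106 with the block), and unlike Vim it was highest on the third replicates. The changes of Fbln2 (0.16, SE 0.26) and Thy1 (0.22, SE 0.40) were also above 0. Primitive and parietal endoderm, which make Sparc and Fn1, had 7 of 12 markers measured, with a mean level of 6.59 to 7.22 on the shAtad2 arrays and 6.90 to 7.58 on the shCtrl arrays. Of the 7 measured endoderm markers, 5 were lower and 2 higher in shAtad2 cells (median -0.02). On the third replicate of both groups, 4 of them were lower and 1 higher. Gata6, an endoderm factor, read 7.25, 7.42 and 4.64 on the shAtad2 arrays and 8.46, 7.96 and 5.83 on the shCtrl arrays. It was above background on 2 of 3 shAtad2 arrays, and Sox17 was not above background on any array. Neural progenitors, which express Vim, Zeb1 and Cdh2, had 2 of 7 markers measured, Nes and Ncam1, with a mean level of 8.16 to 8.73 on the shAtad2 arrays and 7.29 to 7.69 on the shCtrl arrays. Nes, an intermediate filament of neural progenitors, read 8.21, 8.17 and 8.33 on the shAtad2 arrays and 7.60, 7.59 and 7.72 on the shCtrl arrays, a change of 0.60 (SE 0.13, adjusted p 0.329). Pax6, Fabp7 and Hes5 were not above background on any array. The part of any of these cell types in the changes of Vim, Zeb1, Fn1 and Mmp2 was not tested.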

How the data were processed

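Total RNA of 6 samples was read on Illumina beadchips. The authors deposited unnormalized intensity, 1 value per probe and array, with a detection p-value for each. A second deposited table holds intensity processed by the authors, with the same set of values on each array and its processing not given in the sources used here, and served as an alternative. Background was removed from the unnormalized values by normexp, fitted through the detection p-values, with an offset of 16. Quantile normalization and log2 followed, in limma 3.58.1 (R 4.3.3). Probes with a detection p under 0.05 on at least 3 arrays were kept, 18085 in all. Of 45281 probes, 34885 had 1 symbol in the platform annotation, 18 several and 10378 none. Symbols were updated by Entrez identifier for 34807 and kept for 78, and of the kept probes the 2585 with several symbols or none entered no test. The brightest kept probe stood for a gene. Groups and replicate numbers came from the sample titles, and the number of arrays limits the precision.

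The 10072 genes were fitted by lmFit and eBayes of limma, in two-sided tests with p-values adjusted after Benjamini and Hochberg and a threshold of 0.05, all kept probes in a separate fit. Deviations from the group mean correlated at 0.298, 0.287 and 0.578 between arrays of the same replicate number, all above the 0.1 set for treating numbers as pairs, although shAtad2 1 with shCtrl 2 (0.299) and shAtad2 2 with shCtrl 1 (0.342) were as close. A fit with the number as a block was therefore run too. Fits were tested on simulated data. Alternatives covered background correction, offset, normalization, filter, choice of probe, variance model, block and each array left out.

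Genes and lists were chosen with earlier results of these data known. All 9 genes were named, with, for each list, the genes past the threshold or the 2 with the smallest p-value, the gene most like each in pattern, and Atad2. Snai1, Rab25, Ncam1 under the block, Cdh1, Cldn6, Mixl1, Gata6, Dcn and Nes were described after their values were seen.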

Additional observations from a re-analysis of the deposited data

How the results depend on the processing

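Across 21 alternatives, 16 planned and 5 chosen after seeing the data, the signs of Zeb1, Zeb2, Cdh2 (19 alternatives, since requiring detection on all 6 arrays removed it), Fn1, Mmp2 and Sparc were kept in each. Twist1 turned to 0.11 without shAtad2 3 and 0.13 without shCtrl 1 (lowest -0.69), and Vim to -0.036 without shCtrl 3 (highest 1.07). The change lay between 0.34 and 1.04 for Zeb1, -0.73 and -0.27 for Fn1, and 0.43 and 0.54 for Mmp2. The median change of 0.24 was 0.13 with no background correction and 0.13 on the authors' processed table, with or without the replicate block, and between 0.042 (without shCtrl replicate 3) and 0.34 when 1 array was left out. The replicate block took the genes past the adjusted threshold, out of all tested, to 10, against 0 without it, and the related transition genes to 2 (Ncam1, Rab25). With no filter on dim probes the block gave 0 of these genes and 0 of all 19057 tested (1874 at an unadjusted p under 0.05). It gave 1 such gene (Ncam1) without the third replicates, 4 with detection required on all 6 arrays (Ncam1, Rab25, Snai1 and Sox9) and 5 on the authors' processed table (Ncam1, Rab25, Snai1, Cldn4 and Cldn6). In that last fit 213 genes passed in all, and 3 of the mesenchymal transition genes did, Mmp2 at 0.46 (adjusted p 0.0174), Fn1 at -0.41 (adjusted p 0.0355) and Vim at 0.39 (adjusted p 0.0422). In the other alternatives none of them passed. The causes of these shifts were not tested. With the block and detection on all 6 arrays 87 genes passed, of 8735 tested, and 13 without the third replicates, or 3 without the third replicates and without the block. Cdh2, both Zeb2 probes and the dimmer Fn1 probes lie near background, where the size of a change depends on the offset and the background correction. Cdh2 changed by -0.54 in the main fit, -0.26 with an offset of 50 and -0.18 with no background correction. For Zeb2 these values were 0.32, 0.19 and 0.11. Which of them is nearest the true change was not tested.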
